A study of Homo sapiens with 3 samples.

Results

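Replication origin calls were examined at 8 housekeeping genes, named as highly expressed, in untreated HCT116 cells, a human colorectal carcinoma line. The genes are ACTB, GAPDH, EEF1A1, EEF2, NPM1, HSP90AB1, TUBA1B and PCNA. They are given by name, the rule uses no value of these data, and the calls hold no measure of expression, so their label could not be checked here. A window was the gene's hg19 interval plus 10 kb on each side, and windows ran from 23.5 to 43.2 kb, 227 kb in all on 6 chromosomes. The calls came from SNS-seq in 3 replicates of the single group, with no treatment and no genetic change, and the labels do not say whether they were separate cultures. The windows held 88 of the 247794 EPIC2 regions (38 of 124492, 15 of 44482 and 35 of 78820 in replicates 1, 2 and 3). They held 79 of the 443480 MACS2 summits (36 of 218227, 16 of 63077 and 27 of 162176).

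SNS-seq sequences the short DNA strands that start at replication origins, after an exonuclease has digested DNA without the RNA primer that newly made strands carry at their 5′ ends. Human origins are licensed by the origin recognition complex in G1, only some of them fire in a given S phase, and they are known to lie often near the starts of active genes and in GC-rich DNA. MACS2 marked narrow peaks, each given here as 1 base (the summit) with the −log10 of its q-value as the score. EPIC2 marked broad enriched regions with a score whose kind is not given, used here only for its rank within a replicate. Replicate 2 had the fewest calls of both kinds, so values below are given by replicate.

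The sequences just upstream of the genes' starts differed in the motifs they hold. Of the 8 genes, 6 had a RefSeq promoter entry at the start of the canonical transcript, and ACTB and GAPDH had none. Shown are the 250 bases before the start for the genes with summits within 1 kb of the 5′ end in at least 2 replicates (NPM1, HSP90AB1 and EEF1A1) and for EEF2, which had none there in any replicate. They are read 5′ to 3′ on the gene's strand in GRCh38.p14, and no hg19 position was carried over. Capitals mark the GC box (GGGCGG or its reverse complement) and the TATA box (TATAAA). The NPM1 sequence is chr5:171387599-171387848 (plus strand), that of HSP90AB1 is chr6:44246851-44247100 (plus strand), that of EEF1A1 is chr6:73521033-73521282 (minus strand) and that of EEF2 is chr19:3985464-3985713 (minus strand).
NPM1: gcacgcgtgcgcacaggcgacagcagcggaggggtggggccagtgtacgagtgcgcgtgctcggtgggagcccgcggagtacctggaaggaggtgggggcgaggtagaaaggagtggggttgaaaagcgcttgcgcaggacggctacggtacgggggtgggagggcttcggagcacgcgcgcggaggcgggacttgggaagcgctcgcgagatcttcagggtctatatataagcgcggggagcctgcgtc
HSP90AB1: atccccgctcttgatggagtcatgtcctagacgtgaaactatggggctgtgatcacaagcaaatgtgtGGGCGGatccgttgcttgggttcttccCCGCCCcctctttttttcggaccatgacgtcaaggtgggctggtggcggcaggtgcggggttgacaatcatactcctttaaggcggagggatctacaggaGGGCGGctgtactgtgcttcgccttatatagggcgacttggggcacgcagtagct
EEF1A1: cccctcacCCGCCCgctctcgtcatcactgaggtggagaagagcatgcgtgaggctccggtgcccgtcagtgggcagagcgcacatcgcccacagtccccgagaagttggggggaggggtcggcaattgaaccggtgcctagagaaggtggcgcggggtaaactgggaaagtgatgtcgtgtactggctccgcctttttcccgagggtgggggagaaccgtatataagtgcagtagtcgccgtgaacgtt
EEF2: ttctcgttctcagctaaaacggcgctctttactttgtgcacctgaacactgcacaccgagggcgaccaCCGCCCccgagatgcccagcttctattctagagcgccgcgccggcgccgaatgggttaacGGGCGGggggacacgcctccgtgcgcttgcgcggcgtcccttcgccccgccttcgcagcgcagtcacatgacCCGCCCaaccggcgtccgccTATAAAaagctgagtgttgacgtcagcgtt

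A GC box, on either strand, was present in 5 of the 6 promoters, against 42.6% of the 35114 RefSeq promoters of the same length. EEF2, HSP90AB1 and TUBA1B held 3 each, PCNA 2, EEF1A1 1 and NPM1 0. TATAAA was found once, in EEF2 (10.7% of all promoters hold it), and CCAAT only in PCNA, at 2 positions (32.0%). Only the exact letters TATAAA were counted, and the similar stretch TATATA in NPM1, HSP90AB1 and EEF1A1 was left unmarked. The G-quadruplex pattern, 4 runs of at least 3 G joined by short loops on either strand, was in none of the 6 and in 23.5% of all promoters. CpG counts were 14 in HSP90AB1, 20 in EEF1A1, 29 in NPM1, 30 in PCNA, 31 in EEF2 and 38 in TUBA1B, all above the median of 11 over all promoters. These are matches of letters in the reference sequence only.

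The 8 windows were more covered by EPIC2 regions than the genome at large in each replicate. In replicates 1, 2 and 3 regions covered 42.8%, 17.6% and 66.7% of the window bases. Over chromosomes 1 to 22 and X, counting only the 2877 Mb of 1 Mb windows that held a call, they covered 9.21%, 4.77% and 11.2%. The ratio was thus 4.65, 3.69 and 5.94, with a mean of 4.76 ± 1.13 (SD, n = 3). It was above 1 in 3 of 3 replicates, and the exact two-sided sign-flip permutation test gave p = 0.25, the smallest value that 3 replicates allow, so no test here could pass the usual threshold. Summits followed in the same direction, with 15.8, 7.03 and 11.9 per 100 kb of window against 7.58, 2.19 and 5.63 elsewhere. That ratio was 2.09, 3.22 and 2.11, with a mean of 2.47 ± 0.646 (SD, n = 3) and an exact p = 0.25.

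Nearly all of the genes carried calls of both kinds. An EPIC2 region touched the windows of 8, 7 and 8 genes, while it touched 49.8%, 28.0% and 38.1% of the 115080 tiles of 25 kb in the same span. A summit lay in 8, 7 and 8 windows, beside 73.9%, 39.5% and 66.4% of the tiles. The windows were 23.5 to 43.2 kb long, and those longer than a tile are touched more readily. The gene without a region was PCNA and the gene without a summit was GAPDH, both in replicate 2. The median window was covered to 44.6%, 13.7% and 67.1%, where the median tile was covered to 0% and the upper quartile of the tiles was 11.2%, 4% and 15.2%. Regions in the windows also had a median width of 2800, 3000 and 4800 bases, against 1600, 2800 and 3400 over all regions, and taking regions that touch a window favours wide ones. Their scores had a median percentile of 73.9, 77.7 and 76.6 within the replicate, and the part of taking touching regions in this rank was not tested. Summit scores had a median percentile of 65.2, 72.8 and 41.2, so that in replicate 3 the summits ranked below the middle of all summits.

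**Figure D1:**
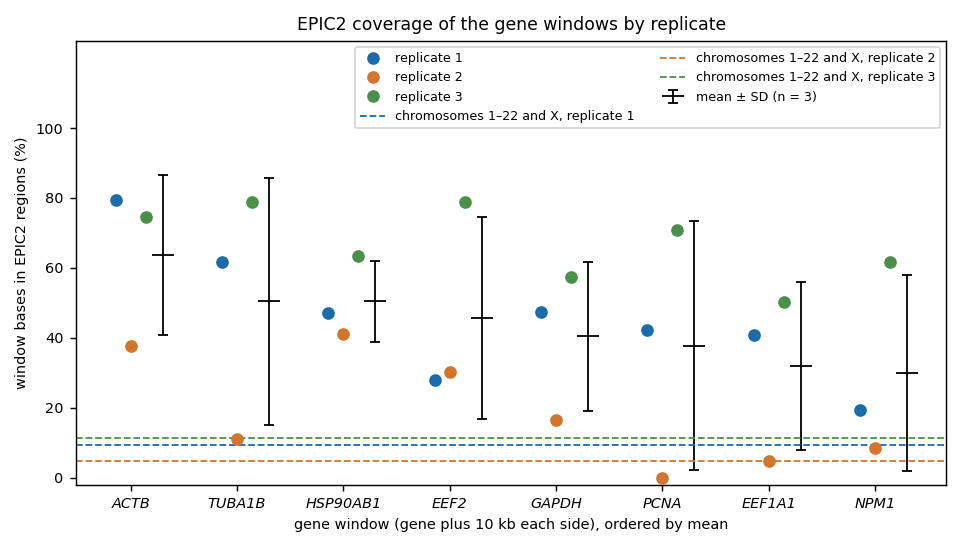
EPIC2 coverage of each gene window (percent of its bases) in replicates 1, 2 and 3 (points), with the mean and SD over the 3 replicates (black) and the coverage of chromosomes 1–22 and X in each replicate (dashed). Genes are ordered by mean, from ACTB at 63.8% to NPM1 at 29.8%, and only PCNA and EEF1A1 in replicate 2 lie at or below their dashed line.

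Much of this enrichment belonged to the wider neighbourhoods of the genes. The 500 kb on each side of the windows were covered to 31.3%, 11.9% and 36.3%, well above the genome. The windows exceeded them by a factor of 1.37, 1.48 and 1.84, with a mean of 1.56 ± 0.246 (SD, n = 3) and an exact p = 0.25. Against the nearest 100 kb on each side, a distance chosen after the data were seen, the factor was 0.922, 1.05 and 1.29, with a mean of 1.09 ± 0.189 (SD, n = 3) and an exact p = 0.75. In replicate 1 the pooled coverage of the windows therefore lay below that of their immediate surroundings. The factor at 100 kb was not computed for single genes, so it does not show how many of the windows lay below.

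The genes differed in how far they stood out from their neighbourhoods. ACTB, HSP90AB1 and NPM1 exceeded the 500 kb on each side in every replicate, by 1.79 to 4.40, 2.48 to 3.42 and 1.45 to 5.10. EEF2 exceeded them in 1 of 3 replicates, with ratios of 0.383, 0.939 and 1.08. The neighbourhood of EEF2 was itself covered to 72.9%, 32.1% and 73.2%, and that of NPM1 to 10.7%, 5.87% and 12.1%. The other 4 genes exceeded their surroundings in replicates 1 and 3 and fell short of them in replicate 2. PCNA reached 2.84 and 3.15 in replicates 1 and 3, EEF1A1 2.09 and 1.89, TUBA1B 1.64 and 1.60, and GAPDH 1.18 and 1.24.

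**Figure D2:**
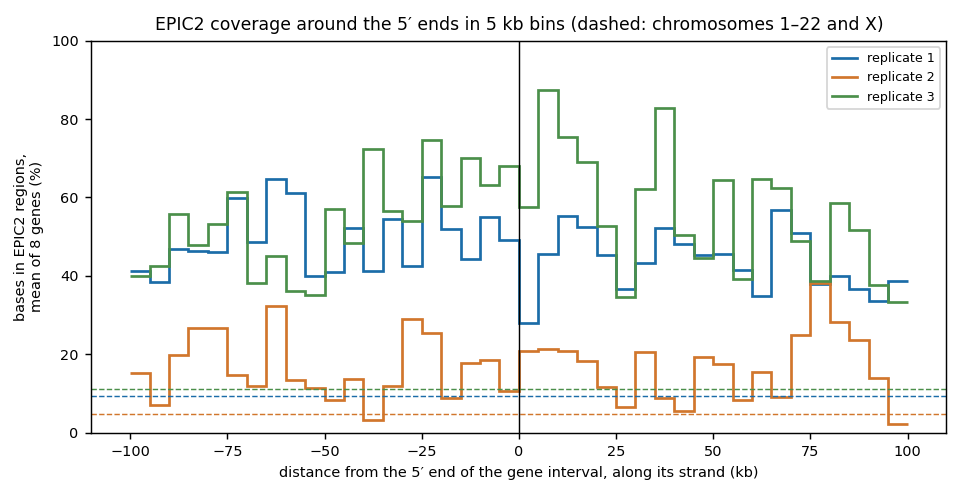
Share of bases in EPIC2 regions (percent, mean of the 8 genes) in 5 kb bins up to 100 kb on each side of the 5′ end of the gene interval, with the coverage of chromosomes 1–22 and X dashed. Coverage stays above the dashed lines in most bins, and the bins next to the 5′ end (mean of the replicates 42.5% upstream and 35.5% downstream) are not the highest, which is the bin centred 22.5 kb upstream at 55.1%.

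The translation factors EEF1A1 and EEF2 differed in where their calls lay. EEF1A1 (chr6:74225473-74230755, minus strand), which delivers aminoacyl-tRNA to the ribosome and whose promoter and first intron are widely used to drive transgenes, was covered to 40.7%, 4.75% and 50.2% of its window. It held 4, 2 and 4 summits. The only EPIC2 region of replicate 2 in this window lay over the 5′ end (chr6:74229801-74231000), was 1200 bases wide and ranked 4 of 44482 by score. The next highest region of that replicate in any of the windows, at EEF2, had a percentile of 95.0. Its summit, 236 bases into the gene, had a −log10 q of 51.4 and ranked 252 of 63077. Replicate 1 covered 0 of these 1200 bases and had no summit in them. Replicate 3 covered all 1200, with a region whose score had a percentile of 71.5 in that replicate and a summit 536 bases into the gene at 9.89. The rank near the top of the EPIC2 list was thus seen in replicate 2 only.

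Beyond the 3′ end of EEF1A1, summits recurred between replicates. Replicates 1 and 2 had summits 6521 and 6570 bases from the 5′ end, and replicates 1 and 3 had summits at 8216 and 8266 bases. All 4 lay 1239 to 2984 bases past the gene. Between 536 bases from the 5′ end and the end of the gene no replicate had a summit.

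EEF2 (chr19:3976054-3985461, minus strand), the factor that moves the ribosome along the mRNA, was covered to 27.9%, 30.1% and 78.9%, with 5, 1 and 5 summits. No summit lay within 1 kb of its 5′ end. The highest summit of each replicate lay downstream of the gene, at 14662, 14513 and 12537 bases from the 5′ end, with a −log10 q of 27.6, 13.1 and 9.08. Their percentiles within the replicate were 99.0, 91.0 and 94.2. They were not a single site, since only those of replicates 1 and 2 paired within 250 bases, 149 bases apart. That of replicate 3 lay 21 bases from another summit of replicate 1, which had a −log10 q of 2.26. The gene interval itself was covered to 0%, 29.8% and 96.3%. The neighbouring gene DAPK3 starts within this window in the GRCh38 annotation.

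Of the cytoskeletal genes, ACTB had the highest mean coverage of the 8 and TUBA1B varied widely between replicates. ACTB (chr7:5566779-5570232, minus strand), which encodes beta-actin, was covered to 79.4%, 37.5% and 74.4%, a mean of 63.8% ± 22.9 (SD, n = 3). It nevertheless held only 2, 1 and 1 summits, the fewest of the 8 genes together. A large part of its coverage was a broad region downstream of the gene, 14000 bases wide in replicate 1 (chr7:5552801-5566800) and 18800 bases wide in replicate 3 (chr7:5545801-5564600), with scores at percentiles of 99.1 and 99.0. Its summits did not recur, and the nearest pair of different replicates, at 9317 and 8442 bases, lay 875 bases apart.

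TUBA1B (chr12:49521566-49525304, minus strand), an alpha-tubulin gene, was covered to 61.6%, 11.0% and 78.9%, a mean of 50.5% ± 35.3 (SD, n = 3). Replicates 1, 2 and 3 had 5, 2 and 2 summits. A downstream summit at 8127 bases in replicate 1 recurred at 8118 bases in replicate 2, and an upstream one at 2682 bases in replicate 1 recurred at 2696 bases in replicate 3. The single summit within 1 kb of the 5′ end was in replicate 3, 523 bases into the gene, with a −log10 q of 2.90.

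GAPDH (chr12:6643585-6647537, plus strand), a glycolytic enzyme, was covered to 47.4%, 16.4% and 57.3%, with 4, 0 and 3 summits. Replicate 1 had a summit 211 bases into the gene at 10.7, at a percentile of 86.2, with no summit of another replicate within 10 kb of it. Regions of replicates 1 and 3 covered the 5′ end and a region of replicate 2 did not. A summit at the upstream edge of the window, 9995 bases away in replicate 1 and 9983 in replicate 3, recurred within 250 bases. Downstream of the gene 2 more pairs of replicates 1 and 3 lay just past that distance, 253 and 256 bases apart.

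At the chaperone genes NPM1 and HSP90AB1 the summits of replicates 1 and 2 next to the 5′ end lay within 11 bases of each other. NPM1 (chr5:170814708-170837888, plus strand) encodes nucleophosmin, a nucleolar histone chaperone that acts in ribosome assembly. Its window was covered least on average, to 19.4%, 8.54% and 61.6%. The summits of replicates 1 and 2 lay 73 and 62 bases upstream of the 5′ end, 11 bases apart, with a −log10 q of 21.3 and 12.1, the highest of this window in both. Replicate 3 had no summit within 1 kb and its nearest was 1354 bases upstream, at 4.05, although a region of it covered the 5′ end. Another site inside the gene was found in all 3 replicates, at 6617, 6453 and 6401 bases. Its −log10 q was 6.27, 2.41 and 8.73. In replicates 1 and 2 this was below the summit next to the 5′ end, and in replicate 3 it was the highest of the window. FGF18 starts in this window in the GRCh38 annotation.

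HSP90AB1 (chr6:44214848-44221614, plus strand), the constitutive cytosolic HSP90, varied least between replicates, at 46.9%, 41.0% and 63.4% and a mean of 50.4% ± 11.6 (SD, n = 3). It was the only gene with a summit within 1 kb of the 5′ end in all 3 replicates. Those of replicates 1 and 2 were 2 bases apart, at 343 and 345 bases, with a −log10 q of 11.0 and 10.3, and that of replicate 3 was at 638 bases, at 4.47. It was also the only window with more summits in replicate 2 (6) than in replicates 1 and 3 (4 and 3). SLC35B2 starts in this window in the GRCh38 annotation.

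PCNA (chr20:5095599-5107268, minus strand) encodes the sliding clamp of the replicative polymerases. It was covered to 42.3%, 0% and 70.7%, with 6, 1 and 4 summits. The summits of replicates 1 and 2 lay 1097 and 1098 bases upstream of the 5′ end of the interval, 1 base apart, with a −log10 q of 12.9 and 3.06. That of replicate 2 was its only call in the window. The 11670-base interval is longer than the canonical transcript span of 5006 bases in GRCh38, so its 5′ end is not the gene's main start, and CDS2 and TMEM230 start in the window too.

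Ordered by mean coverage the genes ran from ACTB (63.8%) through TUBA1B (50.5%), HSP90AB1 (50.4%), EEF2 (45.7%), GAPDH (40.4%), PCNA (37.7%) and EEF1A1 (31.9%) to NPM1 (29.8%). Every pair of neighbours in this order differed by less than the larger of their SDs. ACTB and NPM1, at the ends, were 33.9 percentage points apart, where the larger SD was 28.0.

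**Figure D3:**
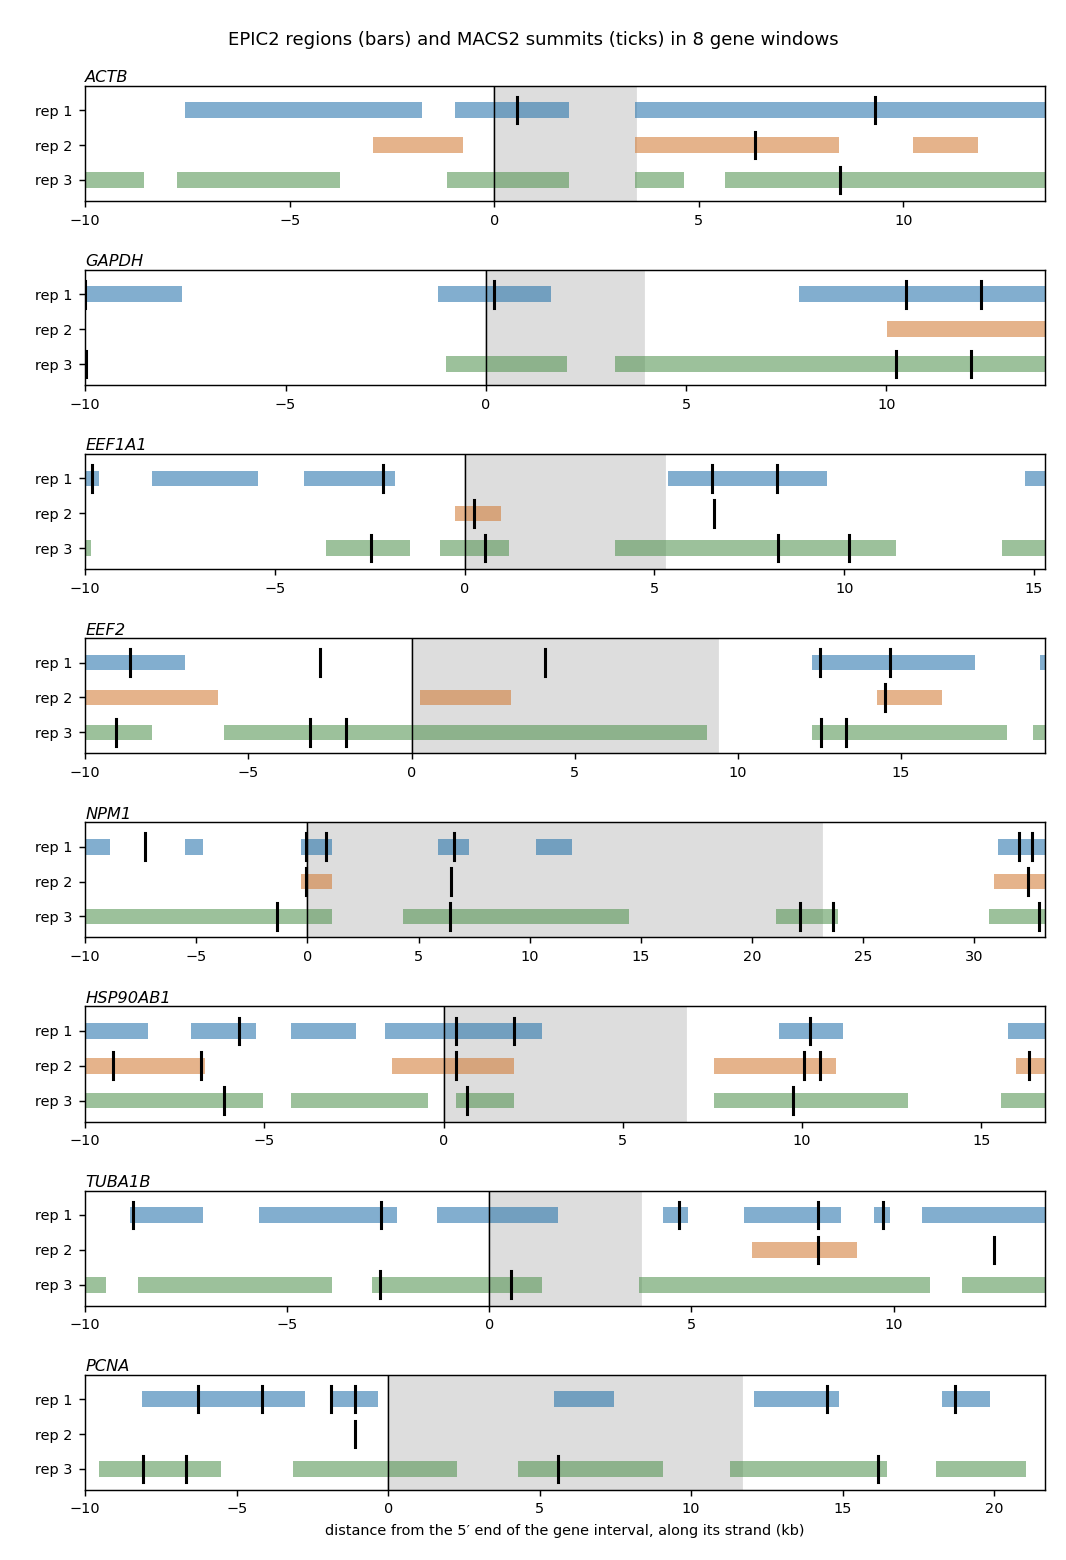
EPIC2 regions (bars) and MACS2 summits (black ticks) of replicates 1, 2 and 3 in the 8 windows, by distance in kb from the 5′ end of the gene interval along its strand, with the interval in grey. Summits of replicates 1 and 2 lie within 250 bases of each other in 6 windows, all but those of ACTB and GAPDH. Such a pair lies within 1098 bases of the 5′ end at NPM1, HSP90AB1 and PCNA. The ACTB window has broad bars with only 4 ticks in all.

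Summits were denser next to the 5′ ends than in the rest of the windows. Within 1 kb of the 5′ ends there were 5, 3 and 3 summits, or 0.312, 0.187 and 0.187 per kb, and elsewhere in the windows 31, 13 and 24, or 0.147, 0.0615 and 0.114 per kb. The ratio was 2.13, 3.05 and 1.65, with a mean of 2.28 ± 0.710 (SD, n = 3), above 1 in 3 of 3 replicates with an exact p = 0.25. It rests on 11 summits, and within 500 bases replicate 3 had none. Such a summit was present at 4, 3 and 3 of the 8 genes, beside 14.4%, 4.29% and 10.9% of the 1438500 tiles of 2 kb. The genes were ACTB, GAPDH, NPM1 and HSP90AB1 in replicate 1, EEF1A1, NPM1 and HSP90AB1 in replicate 2, and EEF1A1, HSP90AB1 and TUBA1B in replicate 3. An EPIC2 region lay over the 5′ end of 5, 3 and 7 of the 8 genes in replicates 1, 2 and 3. All these counts take the 5′ end of the hg19 interval, which for PCNA is not the gene's main start. Calls at the main start of PCNA were not counted. Regions covered 42.8%, 17.6% and 66.7% of all window bases in these replicates. The share of other gene starts under a region was not computed, and whether 5′ ends were covered more often than other window positions was not tested.

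**Figure D4:**
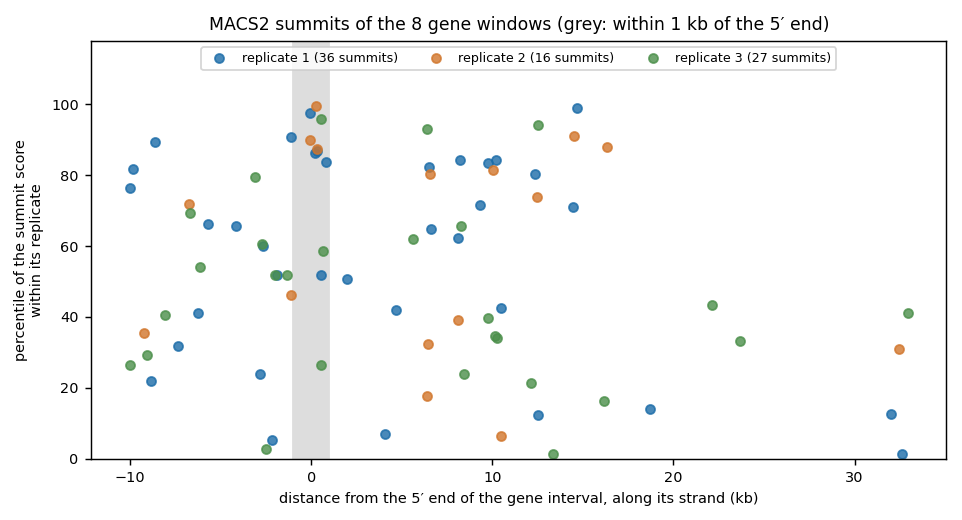
All 79 summits of the windows by distance (kb) from the 5′ end of the gene interval and by the percentile of their score among all summits of their replicate, with the 2 kb around the 5′ end in grey. In the grey band the summits of replicates 1 and 2 sit at percentiles above 50 and reach 99.6, at EEF1A1 in replicate 2, while those of replicate 3 spread from 26.4 to 95.8.

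Pooled over the 8 genes, the gene intervals themselves were less covered than their flanks, a comparison chosen after the values were seen. Regions covered 20.8%, 10.1% and 59.2% of the bases inside the 8 intervals, and 52.1%, 20.8% and 69.9% of the 10 kb flanks. The ratio was 0.399, 0.487 and 0.847, with a mean of 0.578 ± 0.238 (SD, n = 3), below 1 in 3 of 3 replicates with an exact p = 0.25. Some genes went the other way in 1 replicate, with an interval more covered than its whole window. These were EEF2 (96.3% against 78.9%) and GAPDH (69.6% against 57.3%) in replicate 3, and EEF1A1 (18.1% against 4.75%) in replicate 2. In the GRCh38 annotation other coding genes start in the windows of EEF2, NPM1, HSP90AB1 and PCNA, and reach into those of GAPDH and EEF1A1. The PCNA interval also exceeds its canonical transcript. The flanks downstream of the genes were covered to 52.2%, 27.0% and 74.2% and those upstream to 52.1%, 14.5% and 65.6%. Of the 79 summits, 28 lay upstream, 16 in the 67.5 kb of gene and 35 downstream, the flanks being 80 kb each. Several of these genes have processed pseudogenes that share exon sequence, how reads that align to several places were handled is not stated in the sources, and its part in this difference was not tested.

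Consensus origins were EPIC2 regions that held a summit of their own replicate, merged over replicates and kept where at least 2 replicates contributed. All 8 windows were touched by at least 1, with 20 in all, beside 28.6% of the 25 kb tiles, some windows being longer than a tile. Of the 20, 9 (45%) had all 3 replicates, as did 19.1% of all consensus origins. Their median width was 7200 bases, against 4000 bases for all. Taking origins because they touch a window favours wide ones, and its part in the width and in the share with all 3 replicates was not tested. Replicates 1, 2 and 3 contributed to 18, 12 and 19 of them. ACTB, GAPDH, EEF2, NPM1 and HSP90AB1 had at least 1 with all 3 replicates, and EEF1A1, TUBA1B and PCNA had none. The share of tiles that hold one with all 3 replicates was not computed, so this count has no background.

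Consensus origins over the 5′ end were found at 4 genes, and the share over other gene starts was not computed. For PCNA, which had none there, the 5′ end of the interval is not the gene's main start. That of HSP90AB1 (chr6:44213201-44217600, 4400 bases) and that of NPM1 (chr5:170794801-170815800, 21000 bases) held all 3 replicates. That of EEF1A1 (chr6:74229601-74231400, 1800 bases) held replicates 2 and 3, and that of TUBA1B (chr12:49524001-49531000, 7000 bases) replicates 1 and 3. Merging joins regions that need not all reach the 5′ end. At HSP90AB1 the contributing region of replicate 3 began 353 bases inside the gene, so that replicate did not cover the 5′ end. At TUBA1B the contributing region of replicate 1 lay at least 2297 bases upstream, and its region over the 5′ end held no summit. HSP90AB1 had 3 consensus origins of all 3 replicates, the others lying upstream (chr6:44201601-44209800) and downstream (chr6:44222401-44227800) of the gene.

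Within 250 bases, single summits recurred at about the share seen elsewhere in replicates 1 and 2 and at a lower share in replicate 3. A summit of another replicate lay within 250 bases of 13 of 36 (36.1%), 9 of 16 (56.2%) and 5 of 27 (18.5%) window summits in replicates 1, 2 and 3. Over all summits of chromosomes 1 to 22 and X the share was 30.9%, 55.3% and 28.1%, and the means were 37.0% ± 18.9 in the windows and 38.1% ± 15.0 over all (SD, n = 3). The windows held 15 such pairs in 7 genes, all but ACTB, with a median of 49 bases between their members. Replicates 1 and 2 made 9 of the pairs, replicates 1 and 3 made 5, and replicates 2 and 3 made 1. The comparison depended on the distance allowed. Within 500 bases the mean share was 62.1% ± 5.77 (SD, n = 3) in the windows and 45.0% over all summits. Summits were denser in the windows than over chromosomes 1 to 22 and X, by a mean ratio of 2.47. The part of this density in the shares was not tested. With replicates 2 and 3 alone and 250 bases the mean share was 4.98% in the windows and 10.5% over all summits. Of the summits in the windows 91.7%, 75% and 96.3% lay in an EPIC2 region of their own replicate, and 71.1%, 73.3% and 65.7% of the regions held a summit. These shares were not computed over all summits and regions, so they do not show whether the windows differ from the genome.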

How the data were processed

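SNS-seq was done on 3 replicates of untreated HCT116 cells. The authors mapped the reads to hg19 and ran MACS2 and EPIC2 on each replicate by itself. The submitters' processing notes name Bowtie2 2.3.4.2, Picard 2.18.17 and MACS2 2.1.0.20151222. The sources used here name no control library for calling. Each deposited EPIC2 region has 1 score, of a kind not given. Each deposited MACS2 summit has a score taken to be the −log10 q-value, because its lowest value of 1.00 gives a largest q of 0.1. Only calls are held, so the read depth behind a value is unknown, and no interval for counting error is given. EPIC2 starts lie on a grid of 200 bases, and coordinates are given 1-based in hg19.

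Coverage, summit density and overlaps (at least 1 base) were computed with Python 3.11.15, numpy 2.4.6 and scipy 1.17.1. Ratios were formed within each replicate, and their log2 values were tested by an exact two-sided sign-flip permutation test over the 3 replicates. Genes were not treated as replicates. p-values measure only the spread between these libraries, which may be technical. The code was tested on simulated data. All 8 members were named, and other genes only where they start in a window. The members and lists were chosen with earlier results of these data known. The 5′ end is that of the hg19 interval on the gene's strand. The reference at hand was GRCh38, so it was used only for strands, neighbouring gene names, transcript spans and the RefSeq promoter sequences, and exons and introns in hg19 were not annotated. Alternatives varied the windows, thresholds, surroundings, replicates and genes.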

Additional observations from a re-analysis of the deposited data

How the results depend on the processing

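Of 81 alternative values, 0 reversed and 4 moved. The other 77 had a mean ratio on the same side of 1, a count of genes within 1.5 times or a share of matched summits within 1 SD, which says nothing of how far a ratio moved or of single replicates. The coverage ratio ran from 3.22 (genes without flanks) to 6.08 (upper 50% of EPIC2 scores), from 4.17 to 5.30 without 1 replicate and from 4.42 to 5.14 without 1 gene. The summit density ratio ran from 1.66 (genes without flanks) to 2.58 (q of 0.01 or less), from 2.1 to 2.66 without 1 replicate and from 2.17 to 2.61 without 1 gene. The contrast with the surroundings was 1.28 at 250 kb, 1.78 at 1000 kb and, added after seeing the data, 1.09 at 100 kb with 2 of 3 replicates above 1, from 1.42 to 1.66 without 1 replicate and from 1.41 to 1.87 without 1 gene. The 5′ end ratio was 2.94 within 500 bases, where replicate 3 had no summit and no p was computed, and 1.61 within 2 kb. It ran from 1.89 to 2.59 without 1 replicate and, added after seeing the data, from 1.83 (without NPM1) to 2.63 without 1 gene, and was 2.60 without PCNA. The ratio of gene intervals to flanks ran from 0.443 to 0.667 without 1 replicate and from 0.523 to 0.624 without 1 gene. Genes with a consensus origin numbered 5 when all 3 replicates were required and from 6 to 8 without 1 replicate, with no share of tiles computed for these settings. The mean share of matched summits was 62.1% within 500 bases (45.0% over all summits) and ran from 4.98% (without replicate 1) through 16.2% (without replicate 2) to 40.6% (without replicate 3), against 10.5%, 22.8% and 32.6% over all summits, so replicates 1 and 2 decide it. The cause was not tested. No paired analysis was possible because the series has a single group. With 3 replicates, no p can fall below 0.25, with 2 none below 0.5, and the read depth is unknown.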
